A study of Homo sapiens with 24 samples.

Results

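Integrin and cadherin genes were followed in 4 human cell lines that carry an extra whole chromosome. The genes were chosen by name: every table row whose symbol begins with ITGA or ITGB, without binding proteins, integrin-like genes and antisense genes, and every row named CDH plus a number. The chosen rows comprised 38 genes, 24 integrins (16 alpha and 8 beta subunits) and 14 cadherins, of 16742 genes in at least 1 table. The symbol rule covers 49 genes, of which 11 had no row in any table (ITGA8, ITGAL, CDH5, CDH7, CDH8, CDH9, CDH11, CDH16, CDH19, CDH20 and CDH26). Of the 38 genes, 23 were listed in all 4 tables.

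Messenger RNA was sequenced from 24 libraries in 8 groups of 3. HCT116 5/4, a derivative of the near-diploid colon carcinoma line HCT116 with 4 copies of chromosome 5, was compared with HCT116. HCT116* 8/3 c7, with 3 copies of chromosome 8, was compared with HCT116*, the asterisk marking stable expression of histone H2B tagged with GFP, and c7 marks a clone grown from a single cell. RPE1 5/3 12/3, with 3 copies each of chromosomes 5 and 12, was compared with RPE1, near-diploid retinal pigment epithelium immortalised with hTERT, and RPE1* 21/3, with 3 copies of chromosome 21, was compared with RPE1*, which also carries H2B-GFP. Every line grew in DMEM with fetal calf serum. The trisomic lines were made by microcell-mediated chromosome transfer, and chromosome 12 was gained without being transferred. Each karyotype was represented by 1 line, so the gained chromosome and the history of that line cannot be told apart. Nothing in the labels says that the 3 libraries of a group came from separate cultures, and the p-values then measure the spread between these libraries only.

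The deposited tables hold 1 mean normalized count per gene over both groups of a comparison, a log2 fold change of the aneuploid against the parental line, its standard error (SE) and p-values, and no value of a single library. Throughout, a gene was called at an adjusted p-value under 0.05 (DESeq2's Wald test, Benjamini-Hochberg over all genes of a table) with an absolute log2 fold change above 0.6, provided that its mean was 10 or more. The median SE over those genes ran from 0.138 in HCT116* 8/3 c7 to 0.247 in RPE1* 21/3. The HCT116 tables listed 6 of the 9 colorectal epithelial markers, with EPCAM means of 4192 and 5683, and KRT20 and CDX2 were listed there alone. In the RPE1 tables EPCAM had a mean of 4.77 or no row, and KRT19 (18420 and 19180 in the HCT116 tables) had means below 10. KRT8 and KRT18 were abundant in both backgrounds. In the RPE1 tables KRT8 had means of 19620 and 16720, and KRT18 of 12480 and 13420. The retinal pigment epithelial markers did not separate the backgrounds as a set. MITF (1439 and 1124) and BEST1 (42.7 and 41.3) were higher in the RPE1 tables and OTX2 (715.3 and 418.6) was listed there alone, whereas RPE65 (286.7 and 193.9), PMEL and LRAT were higher in the HCT116 tables, and TYR and TYRP1 had no row in any. The leukocyte markers CD3E and SPI1 and the endothelial marker CDH5 had no row in any table. Other markers of both kinds did: of 7 leukocyte markers 3 or 4 had a row per table, and of 5 endothelial markers 1 to 3. CORO1A was listed in all 4, with means of 143.3 and 164.6 in the HCT116 tables and 41.4 and 36.2 in the RPE1 tables. In RPE1 5/3 12/3, CD14 and PECAM1 were called higher at low means (11.6 and 14.6), with log2 fold changes of 1.98 ± 0.59 and 2.18 ± 0.57.

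Integrins are receptors that span the plasma membrane as pairs of 1 alpha and 1 beta subunit. The alpha subunit largely decides which matrix protein is bound, and the short tails of the beta subunit recruit talin, kindlin and focal adhesion kinase to link the matrix to actin. Classical cadherins join neighbouring cells by binding the same cadherin on the next cell, and their tails bind beta-catenin and p120-catenin. Epithelial cells typically carry E-cadherin and P-cadherin, and mesenchymal cells N-cadherin.

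The HCT116 and RPE1 comparisons showed different sets of these receptors, by means that pool the aneuploid and the parental libraries. Per kb of canonical transcript, ITGB1, the beta subunit shared by many integrins, had a mean normalized count of 20030 in the comparison of RPE1 5/3 12/3 and 20210 in that of RPE1* 21/3. Next in the RPE1 tables stood ITGA3 (8815 and 10130), a laminin receptor subunit, and ITGA5 (5822 and 6004), the fibronectin receptor subunit. In the comparison of HCT116 5/4, ITGA3 (3567), ITGB4 (3452) and ITGB1 (3294) lay close together, and the same 3 led in HCT116* 8/3 c7. Among cadherins, CDH3 (931.5 and 1139) and CDH1 (350.3 and 526.8) led per kb in the HCT116 tables, and CDH2 (1882 and 1934), CDH13 (395.8 and 264.9) and CDH6 (229.3 and 123.7) in the RPE1 tables. CDH1, CDH17, CDH22, ITGAD, ITGAM and ITGAX were listed in the HCT116 tables alone, and CDH6, CDH13, ITGA4 and ITGB2 in the RPE1 tables alone. The tables were normalized separately and hold no error for a mean, so neighbours in this order were not tested.

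**Figure D1:**
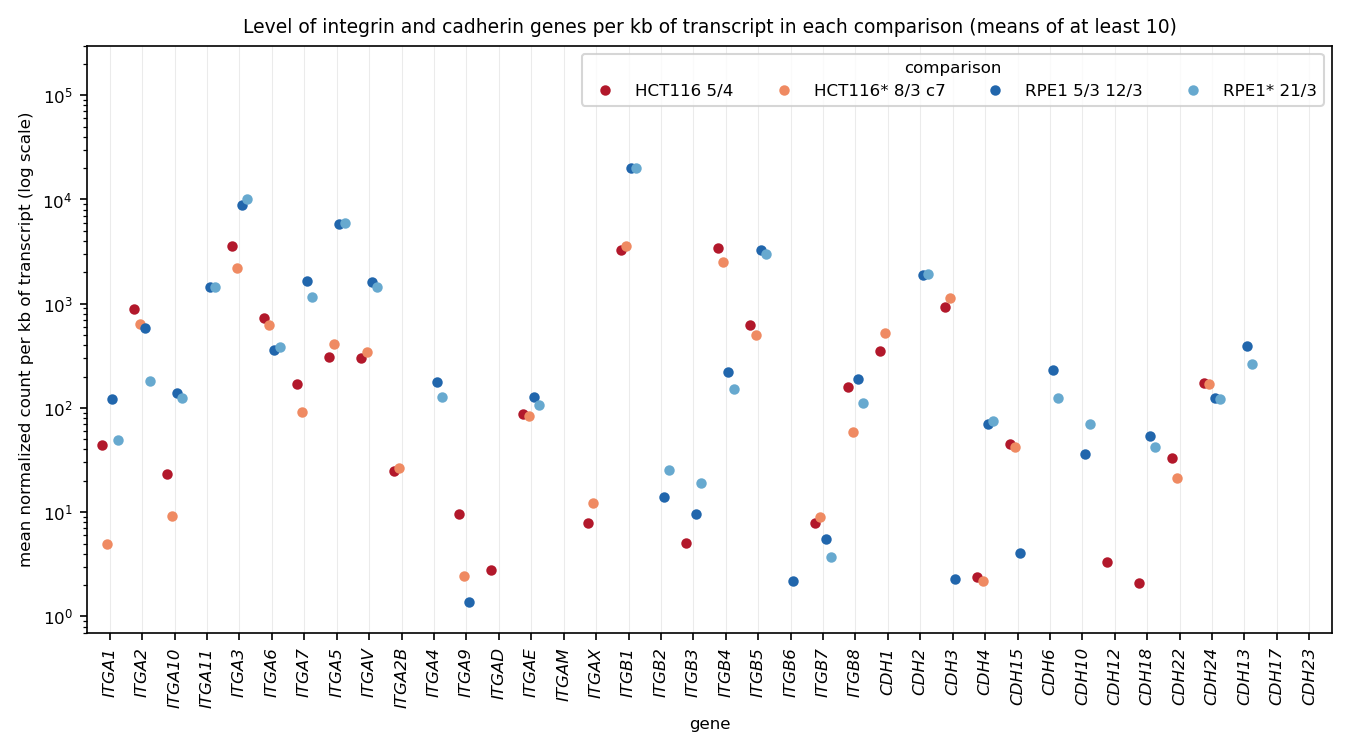
Mean normalized count per kb of canonical transcript (log axis) of each integrin and cadherin gene, 1 point per comparison with a mean of at least 10. ITGB1 sits at 20030 and 20210 in the RPE1 comparisons, CDH1 and CDH3 appear high in the HCT116 comparisons and CDH2 in the RPE1 comparisons.

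Most calls among the members, 27 of 29, fell in the 2 lines with extra chromosome 5, as did most calls over all genes. The 2 lines with extra chromosome 5 are also the ones without H2B-GFP, as are their parents. The tag and the extra chromosome 5 therefore cannot be told apart here. Over all genes, 2865 calls fell in HCT116 5/4 and 2203 in RPE1 5/3 12/3, beside 250 in HCT116* 8/3 c7 and 434 in RPE1* 21/3. In HCT116 5/4, 34 members were listed, 27 had a mean of at least 10 and 13 were called, 10 higher and 3 lower, which is 48.1% against 20.6% of all 13887 genes tested (10.8% higher and 9.83% lower). In RPE1 5/3 12/3, 31 were listed, 29 had a mean of at least 10 and 14 were called, 5 higher and 9 lower, 48.3% against 16.6% of 13278 genes (8.13% higher and 8.47% lower). In HCT116* 8/3 c7, 30 were listed, 23 had a mean of at least 10 and 1 was called, lower, 4.35% against 1.8% of 13869 genes (0.945% higher and 0.858% lower). In RPE1* 21/3, 32 were listed, 25 had a mean of at least 10 and 1 was called, higher, 4% against 3.31% of 13101 genes (1.66% higher and 1.65% lower). The last 2 shares rest on 1 gene each.

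The median log2 fold change of the members was 0.53 in HCT116 5/4, -0.06 in RPE1 5/3 12/3, -0.07 in HCT116* 8/3 c7 and -0.04 in RPE1* 21/3, beside medians over all genes between -0.0004 and 0.006. In HCT116 5/4, 21 of 27 members lay above 0, and in RPE1 5/3 12/3, 13 of 29 did. Across the 4 lines 20 of the 38 members were called at least once (15 integrins and 5 cadherins), 12 of them in 1 line, 7 in 2 lines and 1, ITGA10, in 3 lines. Of the 8 members called in both lines with extra chromosome 5, 5 had the same direction (ITGA1, ITGA2, ITGA10 and ITGB8 higher, CDH3 lower) and 3 the opposite (ITGB3, ITGB4 and CDH18, higher in HCT116 5/4 and lower in RPE1 5/3 12/3). Among these, CDH3 in RPE1 5/3 12/3 (mean 10.1) and CDH18 in HCT116 5/4 (mean 10.1) passed the filter only through the group in which they were high, so the counts are a description. The matching overlap over all genes is not given here, so these counts cannot be called particular to the members.

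**Figure D2:**
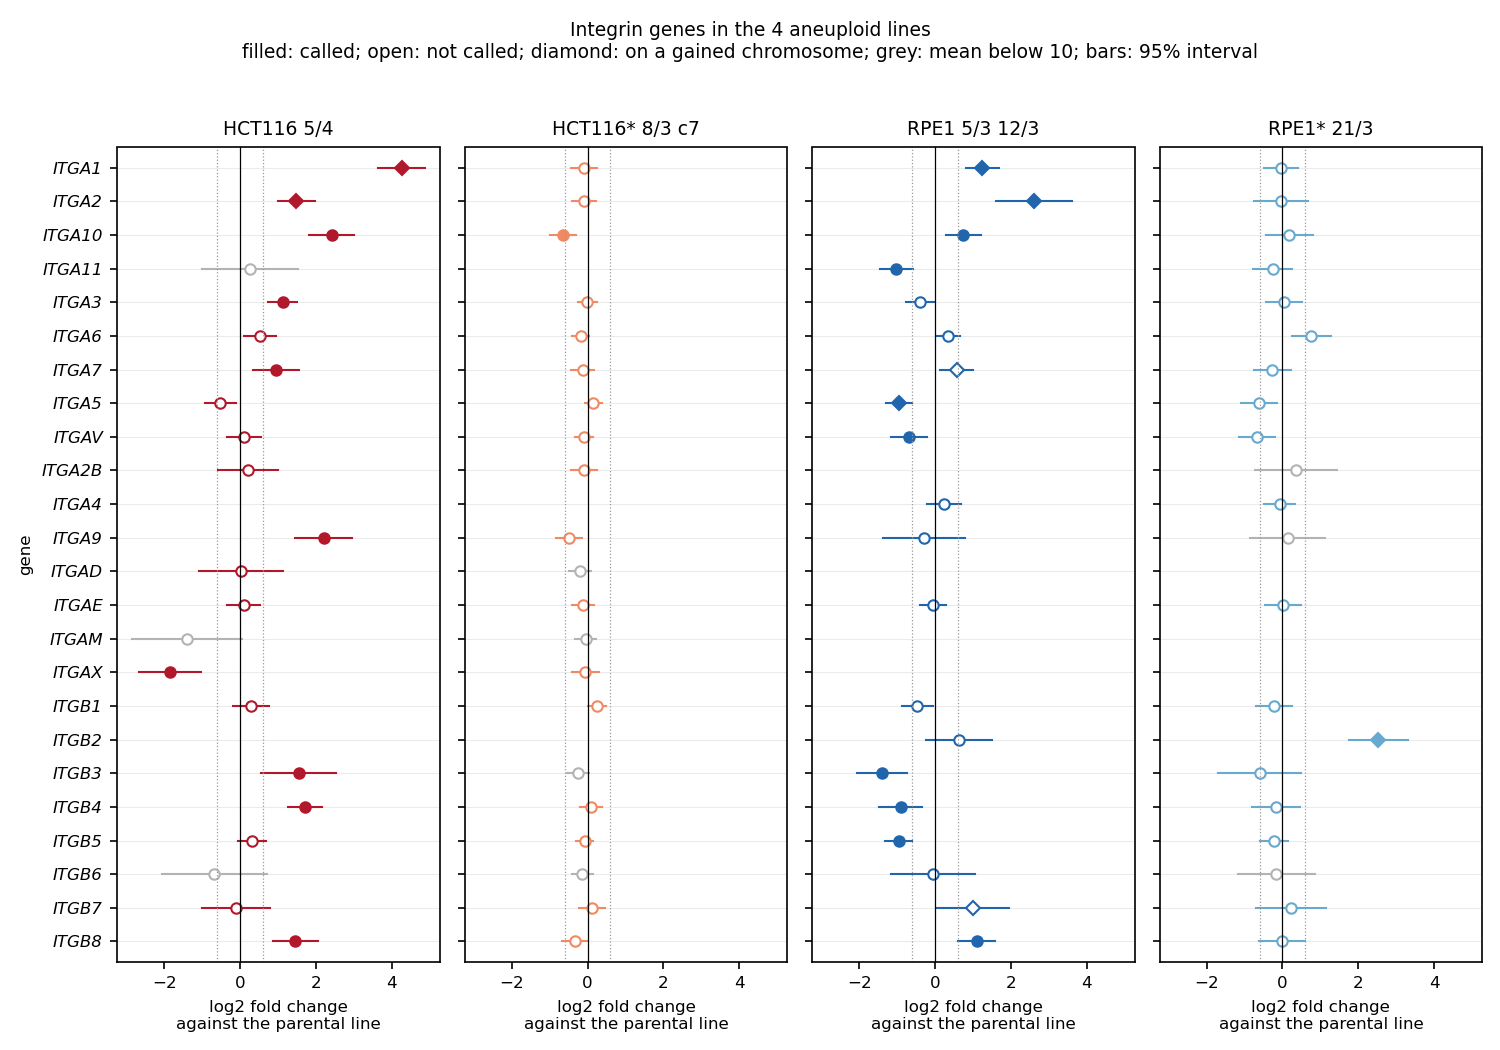
Log2 fold change (x axis) of the 24 integrin genes in each line against its parental line, with the 95% interval from the deposited SE, filled where called and as diamonds on a gained chromosome. Most filled symbols in HCT116 5/4 lie to the right of 0, those in RPE1 5/3 12/3 lie on both sides, and each of the other lines has 1 filled symbol.

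Collagen-binding alpha subunits. ITGA1, ITGA2, ITGA10 and ITGA11 pair with ITGB1 to bind collagens. In HCT116 5/4 all 3 that had a mean of at least 10 rose, and in RPE1 5/3 12/3 all 4 were called, 3 higher and 1 lower. ITGA1 rose by a log2 fold change of 4.27 ± 0.31 (SE, n = 3 against 3, adjusted p = 6.16e-40, DESeq2) in HCT116 5/4, a 19.2-fold difference. Its mean over both groups was 473.2, which with that fold change implies 46.7 in HCT116 and 899.7 in HCT116 5/4. In RPE1 5/3 12/3 it rose by 1.25 ± 0.23 (adjusted p = 7.68e-07, mean 1317). In HCT116* 8/3 c7 and RPE1* 21/3, which have no extra chromosome 5, its log2 fold change was -0.09 ± 0.18 and -0.04 ± 0.23.

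ITGA2, which lies next to ITGA1 on chromosome 5, also rose in both lines, and its change was not shown to differ between them (adjusted p = 0.196). It rose by 1.49 ± 0.25 in HCT116 5/4 (adjusted p = 1.01e-07, mean 6935) and by 2.61 ± 0.51 in RPE1 5/3 12/3 (adjusted p = 6.46e-06, mean 4610). The SE of 0.51 was above the median of that table, and the 95% interval ran from 1.61 to 3.61. In HCT116* 8/3 c7 and RPE1* 21/3 its log2 fold change was -0.10 ± 0.16 and -0.04 ± 0.36.

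ITGA10 lies on chromosome 1, which none of the lines gained. It rose by 2.42 ± 0.30 in HCT116 5/4 (adjusted p = 7.49e-14, mean 119.1) and by 0.75 ± 0.24 in RPE1 5/3 12/3 (adjusted p = 0.0108, mean 718). The latter call was lost at a fold threshold of 1 and at an adjusted p under 0.01. ITGA10 had 0.18 ± 0.31 in RPE1* 21/3, and its change was not shown to differ between the RPE1 lines (adjusted p = 0.405, test of the difference). It fell by 0.65 ± 0.18 in HCT116* 8/3 c7 (adjusted p = 0.0147, mean 47.6), and this was the only call among the members in that line. The log2 value was -1.23 once the shrinkage of that table was undone. ITGA11 was abundant in RPE1 cells only and fell by 1.02 ± 0.23 in RPE1 5/3 12/3 (adjusted p = 0.000123, mean 14630), with -0.26 ± 0.27 in RPE1* 21/3.

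The sequences upstream of 4 members are shown because 3 of them rose in both lines with extra chromosome 5 and the last, CDH10, shares that chromosome and fell in RPE1 5/3 12/3. ITGB8 also rose in both, but only 52 bases of its window lie before an annotated exon, and its sequence is not shown. They are RefSeq sequences of GRCh38.p14, 5′ to 3′ on the gene's strand, ending at the RefSeq start or, for ITGA2 and ITGA10, where an annotated exon of the same gene begins. Capitals mark GC boxes, the letters GGGCGG or CCGCCC.
ITGA1, chr5:52787666-52787915, plus strand, 250 bases: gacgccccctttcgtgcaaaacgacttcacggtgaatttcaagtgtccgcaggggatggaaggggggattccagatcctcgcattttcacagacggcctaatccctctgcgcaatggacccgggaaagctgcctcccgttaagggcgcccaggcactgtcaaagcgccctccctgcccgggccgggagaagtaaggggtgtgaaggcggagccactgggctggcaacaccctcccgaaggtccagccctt
ITGA2, chr5:52989102-52989339, plus strand, 238 bases: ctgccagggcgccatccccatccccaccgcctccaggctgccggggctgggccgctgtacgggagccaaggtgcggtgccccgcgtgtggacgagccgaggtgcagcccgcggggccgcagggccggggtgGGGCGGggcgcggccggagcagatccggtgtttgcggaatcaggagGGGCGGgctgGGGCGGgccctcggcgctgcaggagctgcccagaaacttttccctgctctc
ITGA10, chr1:145910112-145910300, minus strand, 189 bases: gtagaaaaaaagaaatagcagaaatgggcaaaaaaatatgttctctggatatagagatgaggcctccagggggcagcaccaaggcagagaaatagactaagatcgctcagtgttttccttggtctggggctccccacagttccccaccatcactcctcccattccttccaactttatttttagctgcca
CDH10, chr5:24644979-24645228, minus strand, 250 bases: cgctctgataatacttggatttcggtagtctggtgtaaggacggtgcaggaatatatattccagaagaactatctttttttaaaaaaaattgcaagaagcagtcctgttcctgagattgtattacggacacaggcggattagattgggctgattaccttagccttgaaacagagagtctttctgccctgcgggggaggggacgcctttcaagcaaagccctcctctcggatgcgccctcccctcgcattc

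The 4 stretches differ in composition. The ITGA2 stretch has a GC content of 75.6% and holds 3 GC boxes, while those of ITGA1 (62%), CDH10 (47.6%) and ITGA10 (46%) hold none. The 52 bases of ITGB8 have a GC content of 61.5% and hold 1 GC box. Over the 250 bases before the start, 42.6% of 35116 RefSeq windows hold a GC box, and 14 of 45 windows (31.1%) of the 29 members with an entry do. An E box (CACCTG or CAGGTG) occurs in 17.5% of all windows and in 13.3% of the members' windows, and a TATA box (TATAAA or TTTATA) in 10.7% and 8.89%. None of the 4 stretches holds an E box or a TATA box. Both strands were searched, and no motif overlaps another. These matches describe letters and not binding. The ITGA1 window is also that of PELO, whose exons share 499 bases with exons of ITGA1 on the same strand, so counts of the pair may be shared.

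Laminin-binding alpha subunits. ITGA3 and ITGA6 bind laminins of the basement membrane and ITGA7 the laminins around muscle. ITGA3 rose by 1.12 ± 0.20 in HCT116 5/4 (adjusted p = 2.89e-07, mean 17440), while its values were -0.40 ± 0.19 in RPE1 5/3 12/3, 0.04 ± 0.24 in RPE1* 21/3 and within 0.01 of 0 (SE 0.13) in HCT116* 8/3 c7. ITGA7 rose by 0.94 ± 0.31 in HCT116 5/4 (adjusted p = 0.0131). On the gained chromosome 12 of RPE1 5/3 12/3, ITGA7 had a log2 fold change of 0.57 ± 0.22 (adjusted p = 0.0464), just under the size threshold of 0.6. ITGA6 was called in none of the lines, and its values ran from -0.18 ± 0.12 in HCT116* 8/3 c7 to 0.76 ± 0.27 in RPE1* 21/3 (adjusted p = 0.0989).

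Alpha subunits that bind the RGD motif. ITGA5 pairs with ITGB1 as the fibronectin receptor, and ITGAV pairs with several beta subunits to bind vitronectin and latent TGF-beta. Both fell in RPE1 5/3 12/3, ITGA5 by 0.95 ± 0.17 (adjusted p = 5.59e-07, mean 24740) and ITGAV by 0.69 ± 0.25 (adjusted p = 0.0299, mean 11320). ITGA5 fell although it lies on chromosome 12, of which this line has 3 copies. In RPE1* 21/3, which has no extra chromosome 12, the values were -0.62 ± 0.24 for ITGA5 and -0.67 ± 0.24 for ITGAV, neither called (adjusted p = 0.203 and 0.114). ITGA5 had -0.52 ± 0.20 in HCT116 5/4 (adjusted p = 0.0509). The change of ITGAV differed by -0.02 between the RPE1 lines, with a 95% interval from -0.69 to 0.66.

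ITGA9, a receptor subunit for tenascin and VCAM1, rose by 2.21 ± 0.38 in HCT116 5/4 (adjusted p = 1.44e-07, mean 74.9), and its value in HCT116* 8/3 c7 was -0.50 ± 0.17 (adjusted p = 0.105). Of the alpha subunits known from leukocytes, ITGAX fell by 1.85 ± 0.42 in HCT116 5/4 (adjusted p = 0.000147, mean 36.5), with -0.06 ± 0.18 in HCT116* 8/3 c7. ITGAE was listed in all 4 tables, and its log2 fold changes stayed between -0.12 and 0.09. ITGAM had a mean below 10 wherever it was listed. Of 7 leukocyte markers 3 were listed for HCT116 5/4. CD14, on chromosome 5, rose by 4.81 ± 0.66 at a low mean of 22.4, and CORO1A (-0.75 ± 0.37) and LYZ (-0.66 ± 0.69, mean below 10) were not called.

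Beta subunits. ITGB1, the common partner of most alpha subunits above, was called in none of the lines. Its log2 fold change was 0.30 ± 0.24 in HCT116 5/4, 0.25 ± 0.12 in HCT116* 8/3 c7, -0.47 ± 0.21 in RPE1 5/3 12/3 and -0.22 ± 0.24 in RPE1* 21/3. ITGB4, which pairs with ITGA6 in hemidesmosomes, rose by 1.72 ± 0.23 in HCT116 5/4 (adjusted p = 1.09e-12, mean 20350) and fell by 0.90 ± 0.29 in RPE1 5/3 12/3 (adjusted p = 0.0122, mean 1295). The 102 genes within 5 Mb of ITGB4 on chromosome 17 had a median of -0.49 in HCT116 5/4, opposite to ITGB4 itself. ITGB3, a vitronectin receptor subunit, rose by 1.54 ± 0.51 in HCT116 5/4 (adjusted p = 0.0143, mean 30.1) and fell in RPE1 5/3 12/3, with a log2 fold change of -1.398 ± 0.339 (adjusted p = 0.000462, mean 56.9).

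ITGB8, which pairs with ITGAV to activate TGF-beta, rose in both lines with extra chromosome 5 although it lies on chromosome 7. Its log2 fold change was 1.46 ± 0.30 in HCT116 5/4 (adjusted p = 1.52e-05, mean 1413) and 1.10 ± 0.25 in RPE1 5/3 12/3 (adjusted p = 0.00019, mean 1708). The values were -0.33 ± 0.18 in HCT116* 8/3 c7 and -0.02 ± 0.31 in RPE1* 21/3. ITGB5, another partner of ITGAV, fell by 0.96 ± 0.19 in RPE1 5/3 12/3 (adjusted p = 4.8e-06, mean 14550) and had 0.32 ± 0.19 in HCT116 5/4. ITGB2, the beta subunit of the leukocyte integrins, was the only member called in RPE1* 21/3. It rose by 2.53 ± 0.40 (adjusted p = 4.26e-08), a 5.78-fold difference at a low level, the mean of 71.9 implying 21.2 in RPE1* and 122.6 in RPE1* 21/3. ITGB2 had 0.63 ± 0.44 in RPE1 5/3 12/3 (adjusted p = 0.396). Of the 7 leukocyte markers, 3 were listed for RPE1* 21/3 with means between 3.41 and 36.2, none was called, and of the alpha partners of ITGB2, ITGAL, ITGAM and ITGAX had no row there.

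Classical cadherins of type I. CDH1 (E-cadherin) and CDH3 (P-cadherin) stand next to each other on chromosome 16 and fell together in HCT116 5/4. CDH1 fell by 2.34 ± 0.25 (adjusted p = 1.56e-19, mean 1685), a 5.08-fold difference that implies means of 2816 in HCT116 and 554.6 in HCT116 5/4. CDH3 fell by 1.64 ± 0.25 (adjusted p = 1.48e-09, mean 4147). CDH1 had 0.19 ± 0.12 and CDH3 -0.05 ± 0.12 in HCT116* 8/3 c7. The 105 genes within 5 Mb of CDH1 had a median of -0.04 in HCT116 5/4, near 0.

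Other epithelial and mesenchymal markers moved in HCT116 5/4 as well. EPCAM fell by 2.57 ± 0.25 and KRT20 by 3.27 ± 0.44, while KRT18 rose by 1.57 ± 0.23, KRT8 by 1.25 ± 0.25 and VIM by 2.74 ± 0.31. Of the 9 colorectal epithelial markers 6 were listed, 2 rose and 2 fell (66.7%, against 20.6% of all genes). Of the 8 mesenchymal markers 5 were listed and 3 had a mean of at least 10. VIM and PDGFRB rose and COL1A1 fell. PDGFRB (2.65 ± 0.47) lies on chromosome 5, of which this line has 4 copies. The part of these markers in the cadherin result was not tested, and in bulk samples fewer cells of a type and less RNA per cell cannot be told apart. CDH2 (N-cadherin), the mesenchymal counterpart, had a mean below 10 and a log2 fold change of 0.03 ± 0.73 in HCT116 5/4 and no row in HCT116* 8/3 c7.

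CDH2 was abundant in RPE1 5/3 12/3 (mean 7558) and had -0.59 ± 0.17 (adjusted p = 0.00386), just under the size threshold, with -0.17 ± 0.19 in RPE1* 21/3. CDH3 fell by 2.34 ± 0.64 in RPE1 5/3 12/3 (adjusted p = 0.0023), but at a mean of 10.1, barely above the filter, and without shrinkage its value was -2.97. CDH4 and CDH15 were called in none of the lines. The largest value of CDH4 was 0.71 ± 0.36, in RPE1* 21/3 (adjusted p = 0.502).

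**Figure D3:**
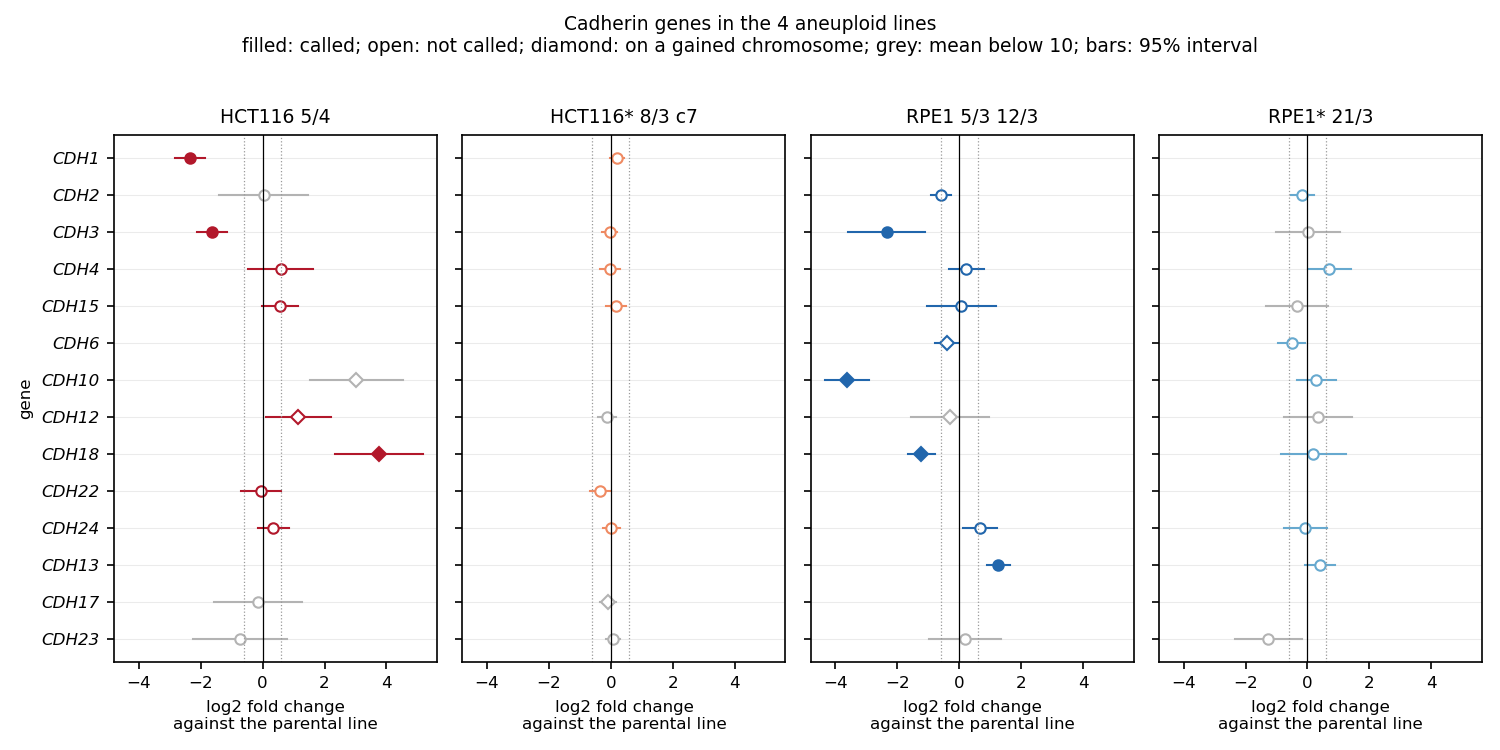
Log2 fold change (x axis) of the 14 cadherin genes in each line against its parental line, with the 95% interval from the deposited SE and grey symbols for means below 10. CDH1 and CDH3 lie left of 0 in HCT116 5/4, CDH10 and CDH18 lie left of 0 in RPE1 5/3 12/3 and right of 0 in HCT116 5/4, and the other lines have no filled symbol.

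Classical cadherins of type II. CDH6, CDH10, CDH12 and CDH18 lie on the short arm of chromosome 5 and are best known from neurons and kidney. CDH10 fell by 3.62 ± 0.35 in RPE1 5/3 12/3, which has 3 copies of that chromosome (adjusted p = 2.83e-22, mean 125.1). The implied means were 231.5 in RPE1 and 18.8 in the aneuploid line. CDH18 fell by 1.22 ± 0.22 there (adjusted p = 5.5e-07, mean 255.9). CDH6 had -0.39 ± 0.19 (adjusted p = 0.16, mean 1958). CDH10 had 0.29 ± 0.32, CDH18 0.19 ± 0.54 and CDH6 -0.51 ± 0.23 in RPE1* 21/3, none of them called.

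CDH10, CDH12 and CDH18 had low means in HCT116 5/4, between 6.47 and 14.1, and CDH6 had no row. CDH18 rose by 3.75 ± 0.72 (adjusted p = 3.79e-06) at a mean of 10.1, so it passed the filter through the libraries in which it was high, and without shrinkage its value was 5.18. CDH10 had 3.03 ± 0.76 at a mean of 6.47, below the filter (adjusted p = 0.000686). CDH12 had 1.16 ± 0.54 (adjusted p = 0.116, mean 14.1). Of the other cadherins, CDH13, which lacks a cytoplasmic tail, rose by 1.26 ± 0.19 in RPE1 5/3 12/3 (adjusted p = 1.09e-09, mean 3117), with 0.40 ± 0.25 in RPE1* 21/3. CDH22 and CDH24 were called in none of the lines, and CDH17 and CDH23 had means below 10 wherever they were listed.

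The log2 fold changes of members that were not called ran from -0.52 (ITGA5) to 1.16 (CDH12) over 14 members in HCT116 5/4, from -0.50 (ITGA9) to 0.25 (ITGB1) over 22 in HCT116* 8/3 c7, from -0.59 (CDH2) to 1.00 (ITGB7) over 15 in RPE1 5/3 12/3, and from -0.67 (ITGAV) to 0.76 (ITGA6) over 24 in RPE1* 21/3. Their SEs reached 0.57 in both lines with extra chromosome 5, and a change of that size could not be told from 0 for the low genes.

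Members on the gained chromosomes were set beside the other genes of those chromosomes, as a description. The genes of chromosome 5 had a median of 0.79 in HCT116 5/4 (619 genes, log2 copy ratio 1) and 0.53 in RPE1 5/3 12/3 (620 genes, log2 copy ratio 0.585), and those of chromosome 12 had 0.44 (685 genes). Those of chromosome 8 had 0.22 in HCT116* 8/3 c7 (463 genes, log2 copy ratio 0.585). Shrinkage, inferred from the ceiling of the SEs, may draw the values of that line towards 0. ITGA1 (chr5:52083750-52255039, plus strand, GRCh37) was higher than 94.3% of the chromosome 5 genes in HCT116 5/4 and 89.4% of those in RPE1 5/3 12/3. In HCT116 5/4 its 95% interval, 3.65 to 4.88, lay above the log2 copy ratio, and in RPE1 5/3 12/3 it ran from 0.81 to 1.69. ITGA2 (chr5:52285170-52390609, plus strand) was higher than 79.2% and 96.6% of them, and its interval in HCT116 5/4, 0.99 to 1.98, included the log2 copy ratio. CDH12 in HCT116 5/4 was higher than 70% of them. The 23 other genes within 5 Mb of ITGA1 and ITGA2 had a median of 1.47 in HCT116 5/4, where 21 of them were called, and of 0.54 in RPE1 5/3 12/3, where 10 were.

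CDH10 (chr5:24487209-24645087, minus strand) was lower than nearly all other genes of its chromosome in RPE1 5/3 12/3, with 0.323% of its genes lower still, and CDH18 (chr5:19471405-20575982, minus strand) had 2.1% lower. The 3 other genes counted within 5 Mb of CDH10 had a median of 0.08. ITGA5 (chr12:54789045-54813050, minus strand) had 3.07% of chromosome 12 lower, beside a median of 0.51 over 147 genes within 5 Mb. ITGA7 had 66.1% lower, and ITGB7 had 1.00 ± 0.49 (adjusted p = 0.156). ITGB2 (chr21:46305868-46351904, minus strand) was higher than 94.4% of the 126 genes of chromosome 21 in RPE1* 21/3, whose median was 0.56, and its interval, 1.75 to 3.32, lay above the log2 copy ratio of 0.585. CDH17, the only member on chromosome 8, had a mean of 5.99 in HCT116* 8/3 c7 and a log2 fold change of -0.09 ± 0.13.

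**Figure D4:**
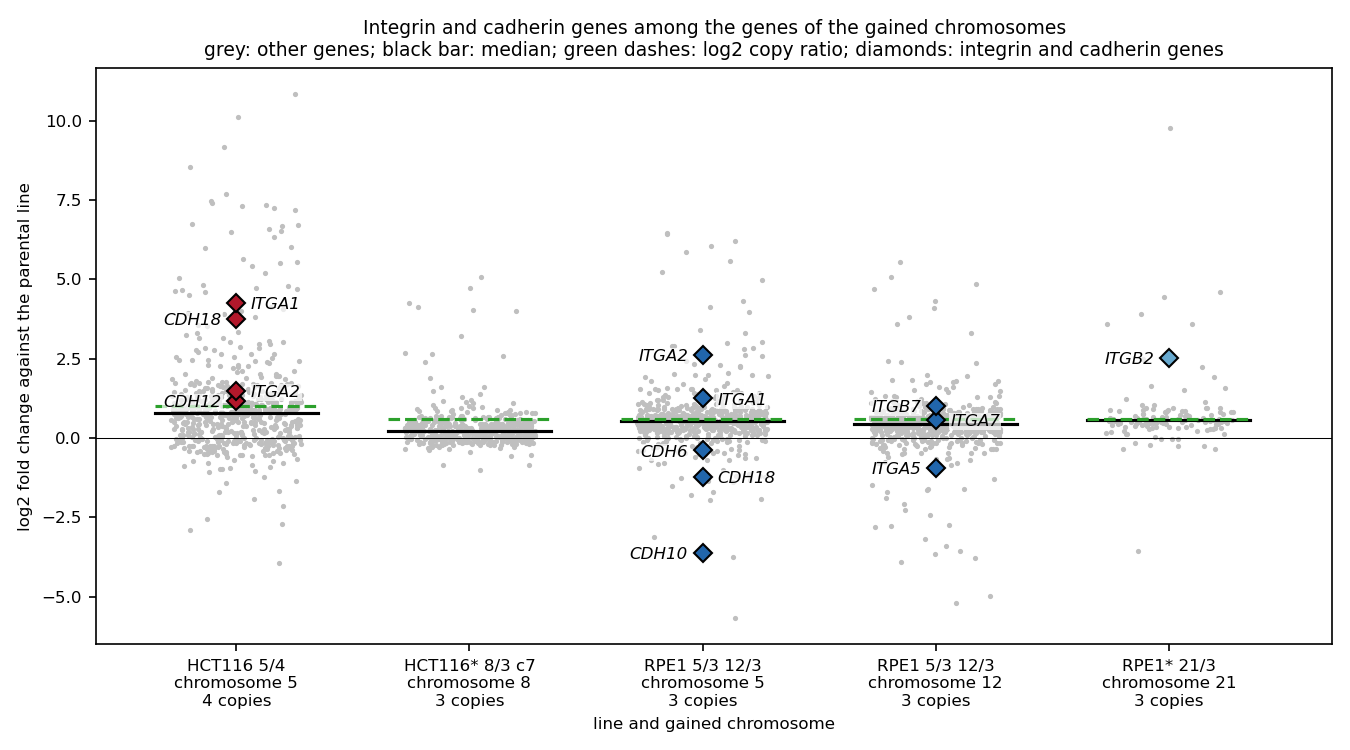
Log2 fold change (y axis) of every gene with a mean of at least 10 on each gained chromosome (grey), with the median (black), the log2 copy ratio (green dashes) and the integrin and cadherin genes (diamonds). ITGA1, ITGA2 and ITGB2 lie above the medians, and CDH10, CDH18 and ITGA5 lie below 0 in RPE1 5/3 12/3.

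The changes of the lines were then compared with each other. For every gene whose mean reached 10 in both tables, the difference of the 2 log2 fold changes was tested against its SE, with p-values adjusted over all genes of the 3 pairs together, and called above an absolute difference of 1. No library was shared within a pair. Lines compared within a background also differ in H2B-GFP and in parent, so their differences cannot be assigned to the gained chromosomes alone. HCT116 5/4 and HCT116* 8/3 c7 differed in 11 of 23 members (47.8%, against 11.9% of all genes), 8 higher and 3 lower in HCT116 5/4. The largest differences were those of ITGA1, 4.36 ± 0.36 (adjusted p = 3.00e-31), ITGA10, 3.07 ± 0.35 (3.84e-16), ITGA9, 2.71 ± 0.42 (4.38e-09), and CDH1, -2.53 ± 0.27 (2.91e-18). ITGB1 differed by 0.05, with a 95% interval from -0.49 to 0.58.

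RPE1* 21/3 and RPE1 5/3 12/3 differed in 5 of 25 members (20%, against 7.92% of all genes). ITGA2 was higher by 2.65 ± 0.63 (adjusted p = 3.88e-04), ITGA1 by 1.29 ± 0.32 (8.43e-04) and ITGB8 by 1.11 ± 0.40 (0.0372) in RPE1 5/3 12/3. CDH10 differed by -3.92 ± 0.48 (2.62e-14) and ITGB2 by -1.90 ± 0.60 (0.0129). The falls of ITGA5, ITGAV, ITGB3, ITGB4, ITGA11 and CDH18 in RPE1 5/3 12/3 were not shown to differ from RPE1* 21/3. The differences of ITGB5, -0.73 ± 0.27 (0.0399), and CDH13, 0.86 ± 0.31 (0.0407), passed the adjusted p and not the size threshold. The interval for ITGA5 ran from -0.92 to 0.25 and that for CDH18 from -2.55 to -0.27, with adjusted p = 0.0842 for the latter.

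The 2 lines with extra chromosome 5 differed in 8 of 21 members (38.1%, against 13.4% of all genes), and in each of the 8 the value was higher in HCT116 5/4. ITGA1 differed by 3.02 ± 0.39 (adjusted p = 4.29e-13), ITGB3 by 2.94 ± 0.61 (3.14e-05) and ITGB4 by 2.62 ± 0.37 (4.96e-11). ITGA9 differed by 2.50 ± 0.67, ITGA10 by 1.67 ± 0.38, ITGA3 by 1.52 ± 0.27 and ITGB5 by 1.28 ± 0.26. CDH18 differed by 4.97 ± 0.76 (adjusted p = 2.38e-09), but it entered this comparison only through the HCT116 5/4 libraries in which it was high. HCT116 5/4 has 4 copies of chromosome 5 and RPE1 5/3 12/3 has 3, with an extra chromosome 12 besides. The cell background differs as well, so these differences cannot be assigned to any of these. ITGB8 differed by 0.36, with an interval from -0.40 to 1.13, and ITGA2 by -1.12 ± 0.57 (adjusted p = 0.196).

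**Figure D5:**
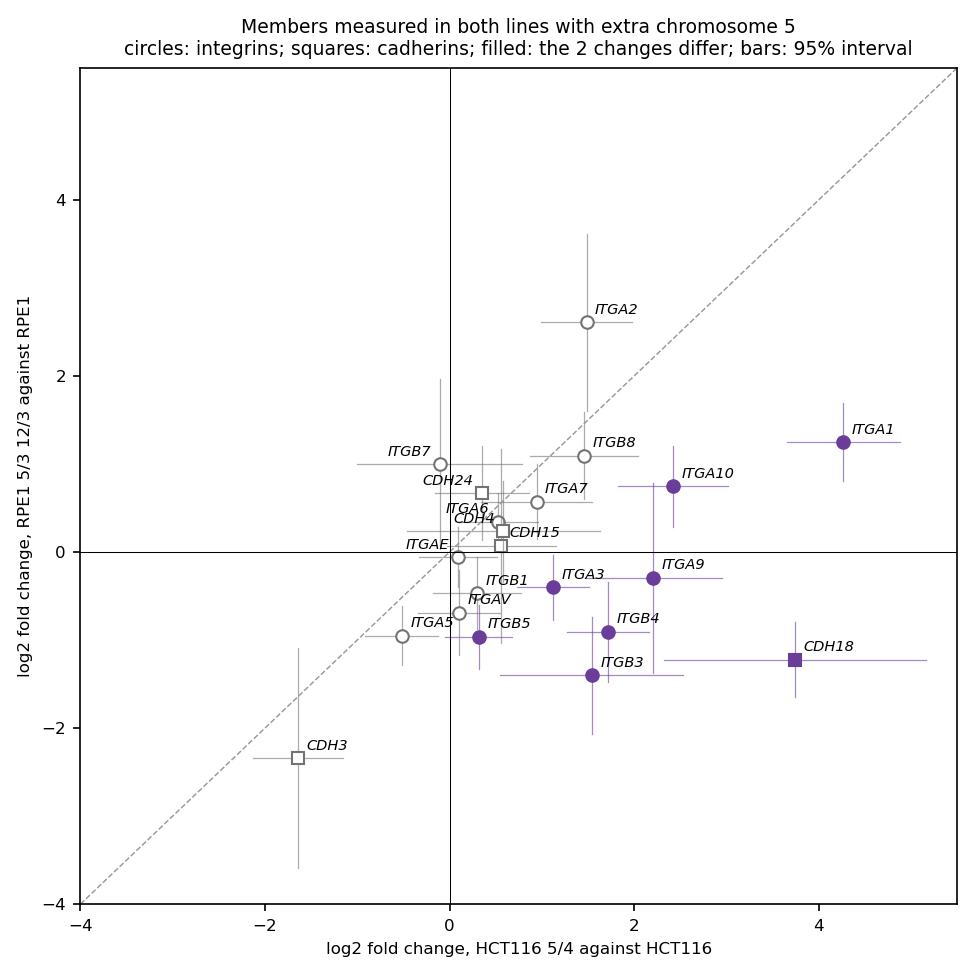
Log2 fold changes of the 21 members with a mean of at least 10 in both lines with extra chromosome 5, HCT116 5/4 on the x axis and RPE1 5/3 12/3 on the y axis, with 95% intervals and the line of equal change (dashed). The 8 filled symbols, whose changes differed, all lie below the line, and ITGA2, ITGB8 and CDH3 lie nearer to it.

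Of 26 genes for cytoplasmic partners of integrins (talins, kindlins, kinases and adaptors), 6 rose and 2 fell in HCT116 5/4, beside a list median of 0.26. That is 30.8%, against 20.6% of all genes. LIMS2, a partner of integrin-linked kinase, rose by 1.28 ± 0.40 and PTK2B, a kinase related to focal adhesion kinase, fell by 0.87 ± 0.25. Focal adhesion kinase itself, PTK2, fell by 0.81 ± 0.19. For RPE1 5/3 12/3, 25 had a mean of at least 10, 1 rose and 9 fell (40%, against 16.6% of all genes), beside a list median of -0.56. FERMT1, a kindlin of epithelial cells, rose by 3.50 ± 0.34 and LIMS2 fell by 3.96 ± 0.29. PTK2B, on the gained chromosome 8, rose by 0.68 ± 0.15 and TNS3 fell by 1.01 ± 0.14 in HCT116* 8/3 c7, the only calls of 26 (7.69%, against 1.8% of all genes). In RPE1* 21/3 FERMT1 fell by 2.50 ± 0.53 at a mean of 10.4, the only call of 25 (4%, against 3.31% of all genes). FERMT1 passed the filter there only through the RPE1* libraries, in which it was high.

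Of 15 symbols for cytoplasmic partners of cadherins, 12 were listed for HCT116 5/4 and 4 were called (33.3%, against 20.6% of all genes). CTNND2, a catenin encoded on chromosome 5, rose by 3.94 ± 0.72 at a mean of 12.4, so it passed the filter only through the libraries in which it was high. LIMA1, an actin-binding protein, fell to a log2 fold change of -1.498 ± 0.199. CTNNA1 (alpha-catenin), also on chromosome 5, rose by 1.02 ± 0.19. Among the 11 with a mean of 10 or more in RPE1 5/3 12/3, 3 fell (27.3%, against 16.6% of all genes) and none rose. ARVCF, a p120-related catenin, fell the most (-1.67 ± 0.27). PTPN14 was the only one of 11 called in HCT116* 8/3 c7, lower (9.09%, against 1.8% of all genes). In RPE1* 21/3 DESeq2 called 0 of 11, against 3.31% of all genes, with 0 at an unadjusted p under 0.05.

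Of 24 integrin ligands, 18 had a mean of at least 10 in HCT116 5/4, 6 rose and 4 fell (55.6%, against 20.6% of all genes). THBS1 (thrombospondin) rose by 3.78 ± 0.24 and ICAM1, a ligand of leukocyte integrins, fell by 2.58 ± 0.35. For RPE1 5/3 12/3, 20 had such a mean, 3 rose and 7 fell (50%, against 16.6% of all genes). SPP1 (osteopontin) rose by 2.77 ± 0.62 and COL1A1, the main chain of fibrillar collagen, fell by 3.18 ± 0.28, as did COL4A1 and COL4A2 of basement membranes, by 2.43 ± 0.19 and 1.66 ± 0.17. EDIL3, a ligand of ITGAV encoded on chromosome 5, rose by 3.29 ± 0.52 in HCT116 5/4, at a low mean of 26.1. It rose by 0.72 ± 0.24 in RPE1 5/3 12/3, at a mean of 8735. LAMB3 rose by 0.68 ± 0.13 in HCT116* 8/3 c7, the only call of 16 (6.25%, against 1.8% of all genes). In RPE1* 21/3 THBS1 rose by 0.74 ± 0.20 and ICAM1 fell by 3.03 ± 0.51 at a mean of 19.8. These lists were read by counts alone, beside the shares of all genes given above.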

How the data were processed

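The authors trimmed adapters with cutadapt, mapped 100-base single reads to hg19 with TopHat2 (version 2.0.10) keeping 1 location per read, counted exon reads per gene with featureCounts (1.4.3) and ran DESeq2 on each aneuploid line against its parent. The 4 deposited tables hold the authors' comparisons: a mean signal (count divided by size factors, over both groups), a log2 fold change with its SE, the Wald score, and p-values adjusted by Benjamini-Hochberg over all genes of a table. These columns were used because the tables hold nothing else; the deposited score equals fold change over SE to within 3.66e-07. Counts per library, and so depth, are unknown, and precision comes from the SEs. The count model foreseen for counts per library could not be run. The SEs reach a ceiling (0.18 in HCT116* 8/3 c7, 0.56 in RPE1* 21/3, and 0.809 and 0.78, less clearly, in the lines with extra chromosome 5), as a normal prior on fold changes gives, and the shrinkage was undone as an alternative.

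Calls used a mean of at least 10, adjusted p under 0.05 and absolute log2 fold change above 0.6. Differences between lines used a two-sided normal test of the difference over its SE, over all genes of 3 pairs, and the code was tested on simulated data. Intervals are at 95%. Members and lists were chosen with earlier results of these data known. Values are given for members called in a line, lying on a gained chromosome or differing in a pair, and others by counts and ranges. Pathway lists are given with the largest called rise and fall, except 1 ligand result that is not reported here, and CTNNA1, PTK2, EDIL3, COL4A1, COL4A2, THBS1 in RPE1* 21/3 and the markers were named after their values were seen. Positions are GRCh37 (GENCODE v44lift37), upstream sequences RefSeq GRCh38.p14, and no coordinate was converted. Implied group means come from the mean and the fold change and assume equal group sizes. Whether counting used strand is not given in the sources used here. Exons overlap those of an antisense or neighbouring gene by 42.3% in ITGB7, 33.2% in ITGB3, 26.4% in ITGA4 and 21.4% in CDH13, so these counts are uncertain. Python 3.11.15, pandas 2.3.3 and scipy 1.17.1 were used, and no column of per-sample values was left unused (0).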

Additional observations from a re-analysis of the deposited data

Results flagged for a closer look

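The log2 fold change differed between lines, by the test of the difference itself, for the following members. Between HCT116 5/4 and HCT116* 8/3 c7 the differences were 4.36 for ITGA1, 3.07 for ITGA10, 2.71 for ITGA9, 1.79 for ITGB8, 1.64 for ITGB4, 1.58 for ITGA2, 1.12 for ITGA3, 1.08 for ITGA7, -1.60 for CDH3, -1.79 for ITGAX and -2.53 for CDH1. Between RPE1 5/3 12/3 and its counterpart with chromosome 21, RPE1* 21/3, they were 2.65 for ITGA2, 1.29 for ITGA1, 1.11 for ITGB8, -1.90 for ITGB2 and -3.92 for CDH10. Between HCT116 5/4 and RPE1 5/3 12/3 they were 3.02 for ITGA1, 2.94 for ITGB3, 2.62 for ITGB4, 2.50 for ITGA9, 1.67 for ITGA10, 1.52 for ITGA3 and 1.28 for ITGB5. CDH18 differed by 4.97, but it entered this pair only through the HCT116 5/4 libraries in which it was high. All 24 were called again with the shrinkage of both tables undone. ITGA1 was the only member that differed in each of the 3 pairs.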

How the results depend on the processing

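No paired analysis was possible because the tables hold no values of single libraries, and no library could be left out for the same reason. Of 29 calls of a member in a line, 21 held under each of 7 alternatives. None reversed, but these alternatives could not reverse fold changes of this size. A threshold of 1 on the fold change ended 7 calls and an adjusted p under 0.01 ended 6. Adjustment over genes above the filter and centring on genes outside the gained chromosomes ended none. Dropping the filter on the mean or the fold threshold only loosened the rule. Undoing the shrinkage kept the adjusted p and enlarged the fold changes. Those alternatives could therefore not end a call, and they say nothing about how firm the calls are. The threshold of 1 left 9 of 14 calls in RPE1 5/3 12/3 and 0 in HCT116* 8/3 c7, where an adjusted p under 0.01 (DESeq2) also left 0. There 1 member passed an unadjusted p under 0.05 and the fold threshold. In RPE1* 21/3 that unadjusted threshold, added after seeing the data, gave 5 members in place of 1. Counts of differing members stayed within 1.5 times in each pair, while the members' median moved from 0.53 to 0.31 in HCT116 5/4 with no filter on the mean, and from -0.06 to -0.22 in RPE1 5/3 12/3 among means above 100. For HCT116* 8/3 c7 it moved from -0.07 to -0.12 with the shrinkage undone, and in RPE1* 21/3 from -0.04 to -0.07 among means above 100. The prior of HCT116 5/4 and RPE1 5/3 12/3 is read from 1 and 3 genes at the ceiling, so values without shrinkage are approximate there. Low genes with SEs above 0.5 limit what could be detected.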
